A study of Mus musculus with 12 samples.

Results

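The 10 astrocyte genes described here are Gfap, Aqp4, Slc1a2, Slc1a3, Aldh1l1, S100b, Gja1, Gjb6, Sox9 and Fgfr3. They were picked by symbol from the 55450 genes of the count table, and each symbol matched 1 gene. The study sequenced total RNA of 2 organs, brain and liver, from males that were 7 to 9 weeks old, in 4 groups of 3 libraries each. Wild-type animals carried the genotype Vaultrc5+/+ (the library titles call them flx, a term the labels do not explain, so whether these controls carry a further allele is not known) and knockout animals carried Vaultrc5-/-, which lack Vaultrc5, a non-coding RNA gene of the vault particle. Apart from that term no other allele or agent is named for any group, and the labels give neither the strain nor the region of the brain. The comparison asks whether the genes of this cell type differ between knockout and wild type in either tissue, and the liver libraries show where the same genes are expressed outside the brain.

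Astrocytes are the glial cells that clear glutamate from synapses, buffer potassium, hold water channels at their endfeet around blood vessels and couple to each other through gap junctions. Gfap encodes the intermediate filament protein of the astrocyte cytoskeleton, which is abundant in white matter and reactive astrocytes, and Aqp4 the endfoot water channel. Slc1a2 (GLT-1) and Slc1a3 (GLAST) encode the glial glutamate transporters, with Slc1a3 typical of cerebellar Bergmann glia. Aldh1l1 encodes a cytosolic enzyme of folate metabolism that is also abundant in hepatocytes, and S100b a calcium-binding protein. Gja1 and Gjb6 encode connexins 43 and 30, Sox9 a transcription factor of glial, cartilage and bile duct cells, and Fgfr3 a receptor for fibroblast growth factors.

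On the GRCm38 build 9 of the genes are placed as follows. They lie at chr11:102887336-102900912 (Gfap), chr2:102658659-102790784 (Slc1a2), chr15:8634124-8710764 (Slc1a3), chr6:90486427-90600203 (Aldh1l1) and chr10:76253853-76261159 (S100b). The others lie at chr10:56377330-56402513 (Gja1), chr14:57123303-57133611 (Gjb6), chr11:112782224-112787760 (Sox9) and chr5:33721674-33737068 (Fgfr3). All 10 are protein-coding genes in GENCODE M21. Exons of Slc1a2 overlap Gm13872 and exons of Fgfr3 overlap G630022F23Rik, in both cases on the other strand. Exons of Aldh1l1 overlap Gm45901 on the same strand and Gm15756 on the other. Every count of the 10 genes was a whole number in all 12 libraries, so no fractional assignment was visible, but reads over the shared exons of these 3 genes are uncertain in their origin.

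Start-site sequence was taken from RefSeq (GRCm38.p6) for 8 of the 10 genes. The stretches of 4 genes are shown, picked by where and how steadily the genes were expressed. Gfap varied most between brain libraries, Slc1a3 and S100b were at or near 0 in liver, and Aldh1l1 was the gene with the higher level in liver. Gjb6, with 0 counts in every liver library, also had such sequence but is not shown. The 4 stretches hold every motif match found in the sequence of the 8 genes. Each stretch is the 250 bases before the RefSeq start, written 5′ to 3′ on the gene's strand, and capitals mark matches to the motifs named after it.
Gfap: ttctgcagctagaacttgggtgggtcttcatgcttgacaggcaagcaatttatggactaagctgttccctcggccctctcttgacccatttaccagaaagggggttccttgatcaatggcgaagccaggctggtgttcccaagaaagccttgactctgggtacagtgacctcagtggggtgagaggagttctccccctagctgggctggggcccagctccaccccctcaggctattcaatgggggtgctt
Slc1a3: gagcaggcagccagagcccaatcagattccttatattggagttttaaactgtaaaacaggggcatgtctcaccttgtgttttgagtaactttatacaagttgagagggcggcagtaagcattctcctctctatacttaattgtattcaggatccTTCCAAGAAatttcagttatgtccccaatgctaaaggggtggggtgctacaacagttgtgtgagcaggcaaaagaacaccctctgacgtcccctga
Aldh1l1: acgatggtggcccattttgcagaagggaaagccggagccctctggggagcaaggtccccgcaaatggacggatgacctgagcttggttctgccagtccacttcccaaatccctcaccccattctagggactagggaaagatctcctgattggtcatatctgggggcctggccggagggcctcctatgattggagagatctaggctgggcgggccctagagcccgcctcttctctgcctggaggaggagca
S100b: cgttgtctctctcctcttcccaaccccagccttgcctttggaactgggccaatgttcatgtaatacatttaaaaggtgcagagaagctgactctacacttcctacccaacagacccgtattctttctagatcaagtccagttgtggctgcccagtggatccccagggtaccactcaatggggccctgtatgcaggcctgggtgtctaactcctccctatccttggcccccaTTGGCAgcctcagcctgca

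The Gfap stretch is chr11:102897201-102897450 on the minus strand; it covers no exon and lies inside the longer gene models of Gfap and, on the other strand, of Gm26668. The Slc1a3 stretch is chr15:8710808-8711057 on the minus strand and the S100b stretch chr10:76253586-76253835 on the plus strand, both outside any gene of the annotation. The Aldh1l1 stretch is chr6:90550543-90550792 on the plus strand, within the gene and upstream of an internal start; its last 4 bases fall in an exon of Aldh1l1. G and C made up 55.6% of the Gfap stretch, 44.8% of Slc1a3, 59.6% of Aldh1l1 and 53.6% of S100b, against a median of 52.4% over 32851 such windows. Aldh1l1 held 7 CpG pairs and the other 3 held 2 each, against a median of 6.

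Motifs were searched as letters on both strands, except the TATA box, which was searched on the gene's strand. The STAT motif TTCNNNGAA was found in the Slc1a3 stretch, 96 bases before the start, and in 7.02% of all windows. The NFI half-site TTGGCA was found in the S100b stretch, 19 bases before the start, and in 12.3% of all windows. None of the 9 windows of the 8 genes held the full, palindromic NFI motif (0.0365% of all windows), the SOX motif ACAATG (10.7%), the HNF4 motif CAAAGTCCA (0.384%) or the TATA box TATAAA (7.59%). A full NFI match would also hold TTGGC, the first 5 letters of the half-site; no other pair of motifs overlaps by design. These are matches of letters only.

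Each brain library held between 14844937 and 18567362 counts, and each liver library between 23247425 and 27155478. The 3 wild-type brain libraries had 4, 1 and 4 counts of Vaultrc5 and those of wild-type liver 33, 39 and 48, and 0 in all 6 knockout libraries. In brain these counts are too few for the knockout to be read from Vaultrc5 with confidence. Snap25, a synaptic gene, had at least 31003 counts in each brain library and at most 3 in each liver library, and Alb, the gene for albumin, at most 5 and at least 714287. Xist stayed at or under 10 counts and Ddx3y, a Y-linked gene, at or above 882 in every library, and all animals are labelled male. All 10 astrocyte genes and all 30 genes of a further list of astrocyte markers had more than 3 counts in every brain library. The brain libraries differed in their RNA of genes that mark other cells. The summed level of 10 cerebellar genes ran from 111 to 2128 CPM (counts scaled to the library size), that of 8 choroid plexus genes from 4.96 to 670 CPM and that of 10 oligodendrocyte genes from 2306 to 7849 CPM.

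In wild-type brain the glutamate transporter Slc1a2 had the highest level per length, at 310 ± 65.6 CPM per kilobase of exon (SD, n = 3). S100b followed at 62.1 ± 26.7, Slc1a3 at 47.8 ± 14.8, Gfap at 30.3 ± 20.4 and Aqp4 at 29.4 ± 12.0 CPM per kilobase. Gja1 lay at 17.6 ± 2.29, Sox9 at 11.1 ± 0.879, Gjb6 at 10.2 ± 1.02, Fgfr3 at 9.70 ± 1.73 and Aldh1l1 at 9.36 ± 0.248. The ranges of neighbours in this order overlapped except between Slc1a2 and S100b and between Gja1 and Sox9. In knockout brain Slc1a2 again came first, at 311 ± 55.2 CPM per kilobase, S100b next at 48.3 ± 19.0 and Slc1a3 next at 48.1 ± 11.0. Gfap and Aqp4 exchanged places, as did Fgfr3 and Aldh1l1, and within each of these pairs the ranges overlapped in both genotypes.

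The levels of Gfap, the cytoskeletal gene, were 88.5, 68.1 and 226 CPM in wild-type brain replicates 1 to 3 and 55.2, 101 and 83.6 CPM in knockout replicates 1 to 3. Wild-type replicate 3 stood far above the other 5 libraries, which overlapped. The highest library was 4.10 times the lowest, the widest range of the 10 genes, against a median of 1.51 over all genes tested in brain. In wild-type brain the coefficient of variation (SD over mean) of Gfap was 67.5%, and 96.1% of the genes tested had a lower one. The oligodendrocyte genes moved in the same library. Their summed level was 3738, 2306 and 7849 CPM in wild-type brain and 2700, 4272 and 2582 CPM in the knockout, with all 10 of 10 above 3 counts in every brain library and none at 0. Wild-type replicate 3 was thus highest and knockout replicate 2 second highest for both, and the part of these cells in the level of Gfap was not tested.

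Aqp4, the water channel, lies at chr18:15389496-15410982 (GRCm38), on the chromosome that also carries Vaultrc5. It had 224, 96.8 and 229 CPM in wild-type brain and 174, 93.8 and 135 CPM in knockout brain. Replicate 2 was the lowest library of both genotypes. S100b had 115, 46.3 and 116 CPM in wild-type brain and 103, 49.6 and 62.2 CPM in the knockout, and again replicate 2 was lowest in both genotypes. The libraries high in S100b, wild-type replicates 1 and 3 and knockout replicate 1, were those with the most RNA of choroid plexus genes. Those 8 genes summed to 264, 4.96 and 490 CPM in wild-type brain and 670, 10.4 and 15.3 CPM in the knockout. In the 3 libraries with high sums most of it was Ttr, the transthyretin gene, which had 217, 0.276 and 416 CPM in wild-type brain and 584, 2.60 and 3.58 CPM in the knockout. None of the 8 genes was at 0 throughout a brain group, and 4 of 8 in wild type and 6 of 8 in knockout exceeded 3 counts in every library. Their part in the S100b level was not tested.

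Of the glutamate transporters, Slc1a2 had 3252, 4968 and 3994 CPM in wild-type brain and 3305, 4740 and 4195 CPM in the knockout, with replicate 1 lowest and replicate 2 highest in both genotypes. Slc1a3 had 554, 344 and 327 CPM in wild-type brain and 510, 324 and 399 CPM in the knockout, with replicate 1 highest in both. Both genes were lower in wild-type replicate 3 than in replicate 2, so in wild type their opposite order rests on replicate 1. The ratio of Slc1a2 to Slc1a3 per length was 3.82, 9.39 and 7.94 in wild-type brain and 4.21, 9.52 and 6.83 in knockout brain. The ratio was thus lowest in replicate 1 and highest in replicate 2 of both genotypes.

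The cerebellar genes followed the same replicate numbers. They summed to 2128, 145 and 555 CPM in wild-type brain and 1980, 111 and 912 CPM in the knockout, with 7 of 10 above 3 counts in every brain library and none at 0 throughout a group. Cbln1, a granule cell gene, had 272, 4.47 and 64.0 CPM in wild-type brain and 263, 7.27 and 99.5 CPM in the knockout. Slc1a6, the glutamate transporter of Purkinje neurons, had 35.7, 4.25 and 13.2 CPM in wild-type brain and 35.8, 3.25 and 17.4 CPM in the knockout. The 12 neuronal genes summed to 6774, 9009 and 7796 CPM in wild-type brain and 7290, 8620 and 7689 CPM in the knockout, lowest in replicate 1 and highest in replicate 2 as for Slc1a2. The part of the cerebellar RNA in the levels of both transporters was not tested.

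**Figure D1:**
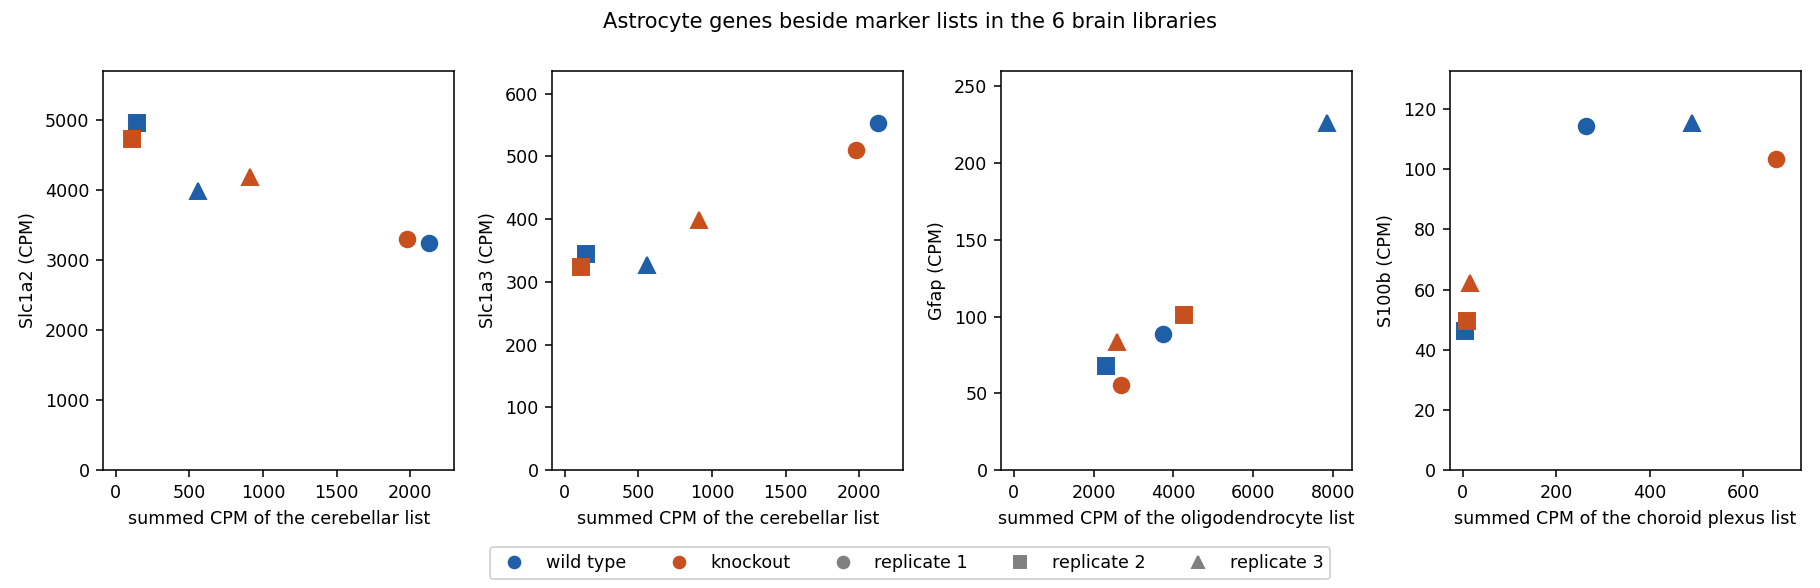
Levels of Slc1a2, Slc1a3, Gfap and S100b (vertical axes, CPM) against the summed CPM of a marker list (horizontal axes) in the 6 brain libraries, with colour for genotype and shape for replicate number. Slc1a2 is lowest and Slc1a3 highest in the libraries with the most cerebellar RNA (1980 and 2128 CPM), Gfap is highest where oligodendrocyte genes reach 7849 CPM, and S100b exceeds 100 CPM where choroid plexus genes reach 264 CPM or more.

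Gja1 (connexin 43) had 184, 156 and 202 CPM in wild-type brain and 153, 155 and 156 CPM in knockout brain, so that wild-type replicate 2 lay within the knockout range. Gjb6 (connexin 30) had 26.5, 25.0 and 30.3 CPM in wild-type brain and 23.3, 27.0 and 28.6 CPM in the knockout. The ratio of Gja1 to Gjb6 per length stayed between 1.42 and 1.81 in all 6 libraries.

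Aldh1l1, the folate enzyme, had 41.9, 41.4 and 43.5 CPM in wild-type brain and 34.8, 43.2 and 40.3 CPM in the knockout. Its coefficient of variation in wild-type brain was 2.65%, and 3.19% of the genes tested had a lower one. Sox9 had 50.2, 44.0 and 43.9 CPM in wild-type brain and 45.4, 42.2 and 40.4 CPM in the knockout, and its highest library was 1.24 times its lowest. Fgfr3 had 62.1, 62.5 and 83.8 CPM in wild-type brain and 53.6, 63.2 and 64.1 CPM in the knockout, with wild-type replicate 3 alone above the rest. Wild-type replicate 3 was the highest brain library for 7 of the 10 genes, and knockout replicate 1 the lowest for 5. The median coefficient of variation of the 10 genes was 19.5% in wild-type brain and 14.3% in knockout brain, against 16.1% and 13.7% over all genes tested.

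**Figure D2:**
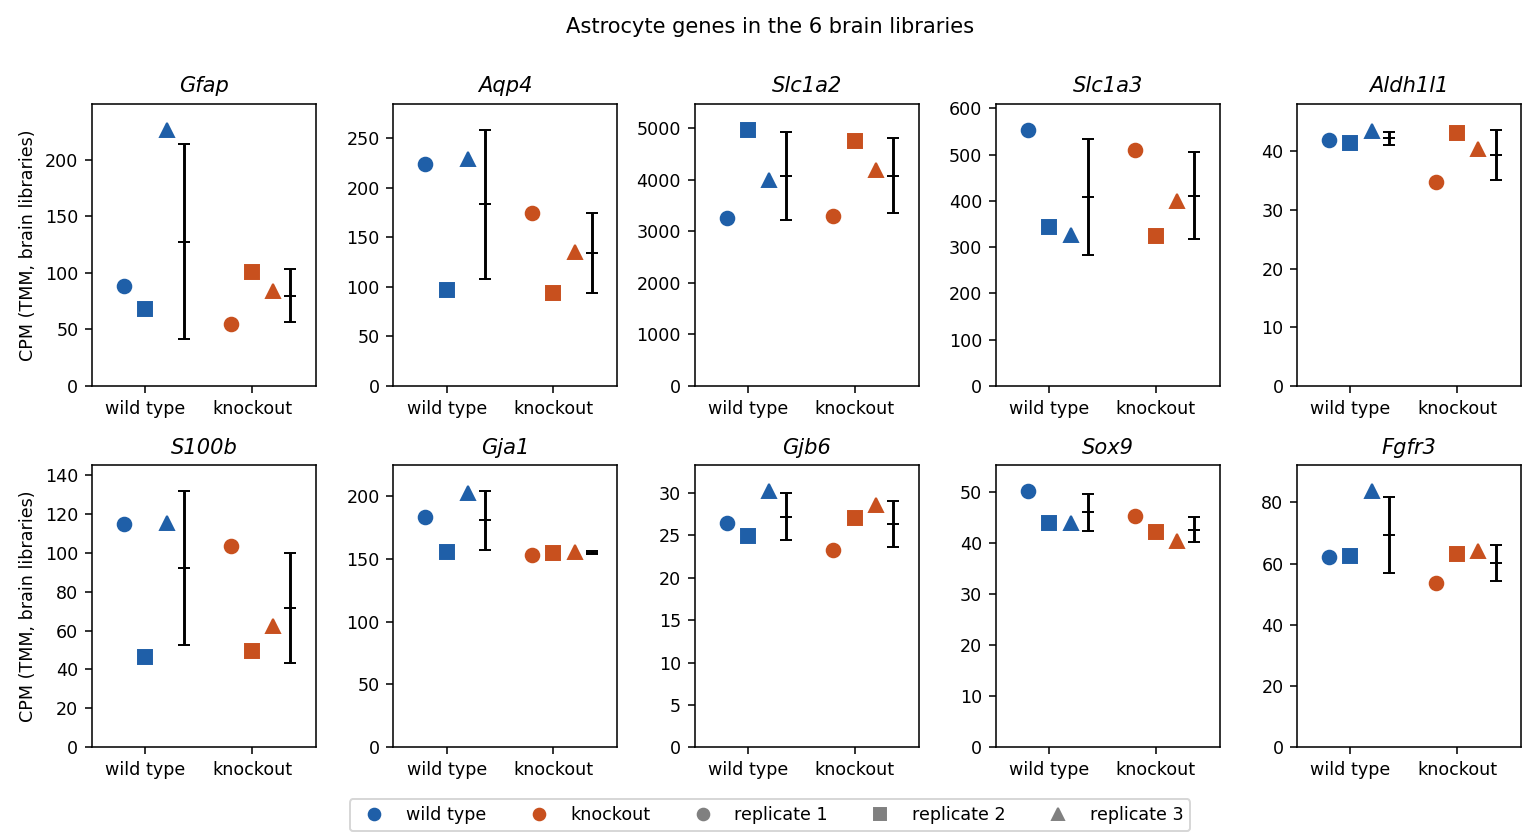
Levels of the 10 astrocyte genes (CPM, linear axes from 0) in the 3 wild-type and 3 knockout brain libraries; colour marks genotype, shape the replicate number, and the black tick and whiskers beside each group the mean and SD. The groups overlap for every gene; Gfap in wild-type replicate 3 stands at 226 CPM against at most 101 CPM elsewhere.

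No astrocyte gene passed the test between knockout and wild-type brain. In edgeR's quasi-likelihood test with Benjamini-Hochberg adjustment over 18075 genes, 0 of 10 had an adjusted p under 0.05, as did 0% of all genes. At an unadjusted p under 0.05 there were 0 of the 10 genes and 122 of all genes (0.675%). The ranges of the 2 genotypes overlapped for all 10 genes, while 4.23% of all genes had ranges that did not overlap. In bulk tissue, fewer cells of a type and less RNA per cell cannot be told apart. The labels number the replicates without saying how they were taken, so p-values measure the spread between these libraries, part of which may be technical. Same-numbered brain libraries deviated together for replicates 1 and 2 (correlations 0.71 and 0.68), not for replicate 3 (-0.03). The test left the number out, so spread shared by same-numbered libraries counted as error. With the number as a block, 0 genes passed in edgeR. The SE of the log2 fold change was then 0.14 in place of 0.37 for Aqp4 and 0.50 in place of 0.47 for Gfap.

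The fitted log2 fold changes of knockout over wild type in brain were -0.67 ± 0.47 (SE) for Gfap, -0.45 ± 0.37 for Aqp4 and -0.36 ± 0.41 for S100b, the 3 genes with the widest ranges. They were 0.00 ± 0.20 for Slc1a2 and 0.01 ± 0.25 for Slc1a3, whose means were 4071 ± 861 against 4080 ± 725 CPM and 408 ± 126 against 411 ± 93.6 CPM (wild type against knockout, SD, n = 3). For the connexins they were -0.22 ± 0.11 (Gja1) and -0.05 ± 0.12 (Gjb6), for Aldh1l1 -0.10 ± 0.10, for Sox9 -0.11 ± 0.10 and for Fgfr3 -0.20 ± 0.15. All had adjusted p-values of 1.00 in edgeR. The 95% intervals ran from -1.79 to 0.44 for Gfap and from -0.48 to 0.48 for Slc1a2, and for Sox9, the narrowest, from -0.34 to 0.12. Without wild-type replicate 3 the log2 fold change of Gfap was 0.03, and that of Aqp4 -0.26.

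By sign, 8 of the 10 genes had a lower estimate in knockout brain, with a median log2 fold change of -0.16, against 9353 of 18075 genes and a median of -0.01. Of 30 further astrocyte markers, 23 had a lower estimate, with a median of -0.08. The 10 oligodendrocyte genes were lower in 10 of 10, with a median of -0.45. Without wild-type replicate 3, these became 8 of 10 with a median of -0.10 for the astrocyte genes, 21 of 30 with -0.02 for the further markers and 0 of 10 with 0.07 for the oligodendrocyte genes. None of these signs belongs to a gene that passed the test.

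In liver the order was different. Aldh1l1 led in wild-type liver at 201 ± 45.7 CPM per kilobase, followed by Slc1a2 at 17.7 ± 1.98 and Fgfr3 at 4.71 ± 1.22. Sox9 lay at 1.81 ± 0.397, Aqp4 at 1.05 ± 0.160 and Gja1 at 0.628 ± 0.202 CPM per kilobase. Gfap and Slc1a3 lay lower, at 0.0816 ± 0.0286 and 0.0689 ± 0.00855 CPM per kilobase, with overlapping ranges, and the other neighbours among these 8 genes did not overlap. Gjb6 had 0 counts in all 6 liver libraries, and S100b had 0 in 5 and 4 counts in knockout replicate 1. At these depths a count of 0 allows up to 3 counts a library, which covers counting error only.

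Aldh1l1 had 1140, 748 and 831 CPM in wild-type liver and 853, 775 and 906 CPM in knockout liver. Slc1a2 had 243, 202 and 250 CPM in wild-type liver and 233, 251 and 240 CPM in the knockout. Fgfr3 had 43.8, 29.6 and 27.9 CPM in wild-type liver and 35.8, 30.7 and 24.9 CPM in the knockout. These 3 genes were well measured in liver, with at least 587 counts in each library, and their genotypes overlapped.

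The remaining genes rested on fewer liver counts. Aqp4 had 7.68, 5.97 and 5.95 CPM in wild-type liver and 6.63, 2.51 and 9.22 CPM in the knockout, where replicates 2 and 3 held both the lowest and the highest of the 6 values. Gja1 had 4.54, 6.15 and 8.64 CPM in wild-type liver and 8.70, 7.44 and 8.50 CPM in the knockout. Sox9 had 6.84, 9.36 and 6.27 CPM in wild-type liver and 8.54, 11.0 and 4.21 CPM in the knockout. The extremes of Sox9, like those of Aqp4, were both knockout libraries. The 10 genes of a bile duct cell list, cells that express Sox9, summed to 71.4, 78.1 and 74.6 CPM in wild-type liver and 77.0, 158 and 64.8 CPM in the knockout. They were highest and lowest in the same libraries as Sox9, with 8 of 10 above 3 counts in every wild-type and 7 of 10 in every knockout liver library. Their part in the Sox9 level was not tested. The 6 Kupffer cell genes were also highest in knockout replicate 2, at 275 CPM against 107 to 146 CPM in the other liver libraries. Gfap had between 6 and 11 counts and Slc1a3 between 5 and 25 counts in each liver library.

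No astrocyte gene passed the test between knockout and wild-type liver. Gfap, S100b and Gjb6 had too few counts to be tested, and of the other 7, 0 had an adjusted p under 0.05 in edgeR, as did 0% of 15329 genes. At an unadjusted p under 0.05 there were 0 of the 7 and 536 of all genes (3.50%). The ranges overlapped for all 7 tested genes, against 9.84% of all genes tested with ranges that did not overlap. When the replicate number was added as a block, 2 genes of the whole table passed in liver, neither of them an astrocyte gene. DESeq2 called 10 genes in liver, again without an astrocyte gene.

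The log2 fold changes in liver were 0.06 ± 0.11 (SE) for Slc1a2, -0.10 ± 0.18 for Aldh1l1, -0.15 ± 0.21 for Fgfr3 and 0.35 ± 0.23 for Gja1. They were -0.09 ± 0.44 for Aqp4, 0.08 ± 0.35 for Sox9 and 0.18 ± 0.53 for Slc1a3. The adjusted p-values from edgeR ran from 0.992 to 0.999. The 95% interval for Aldh1l1 was -0.51 to 0.31, and that for Slc1a2 -0.20 to 0.31. By sign, 4 of the 7 genes were higher in the knockout, with a median of 0.06, against 7858 of 15329 genes and a median of 0.01. Without wild-type replicate 1 this became 7 of 7 (median 0.09), and without wild-type replicate 2 it became 3 of 8 (median -0.10), so the tally rests on single libraries. With the replicate number as a block, the estimates were -0.23 ± 0.37 for Aqp4, 0.01 ± 0.19 for Sox9 and 0.07 ± 0.53 for Slc1a3, and the adjusted p-values of the 7 genes from edgeR ran from 0.803 to 0.992.

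The difference between the knockout effects in brain and in liver was tested in a joint fit (the genotype by tissue interaction). In edgeR 0% of 20141 genes passed, and 489 (2.43%) had an unadjusted p under 0.05. All 10 astrocyte genes were in that fit and none passed. Values are given for 8 of them, Gfap included despite its few liver counts, and not for S100b and Gjb6, which had at most 3 counts in every library of a liver group. Gja1 had the smallest unadjusted p, 0.0594, with a difference of -0.55 ± 0.26 (brain effect minus liver effect, log2) and an adjusted p of 1.00 in edgeR. For Gfap the difference was -0.71 ± 0.87 and for Aldh1l1 0.02 ± 0.22.

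**Figure D3:**
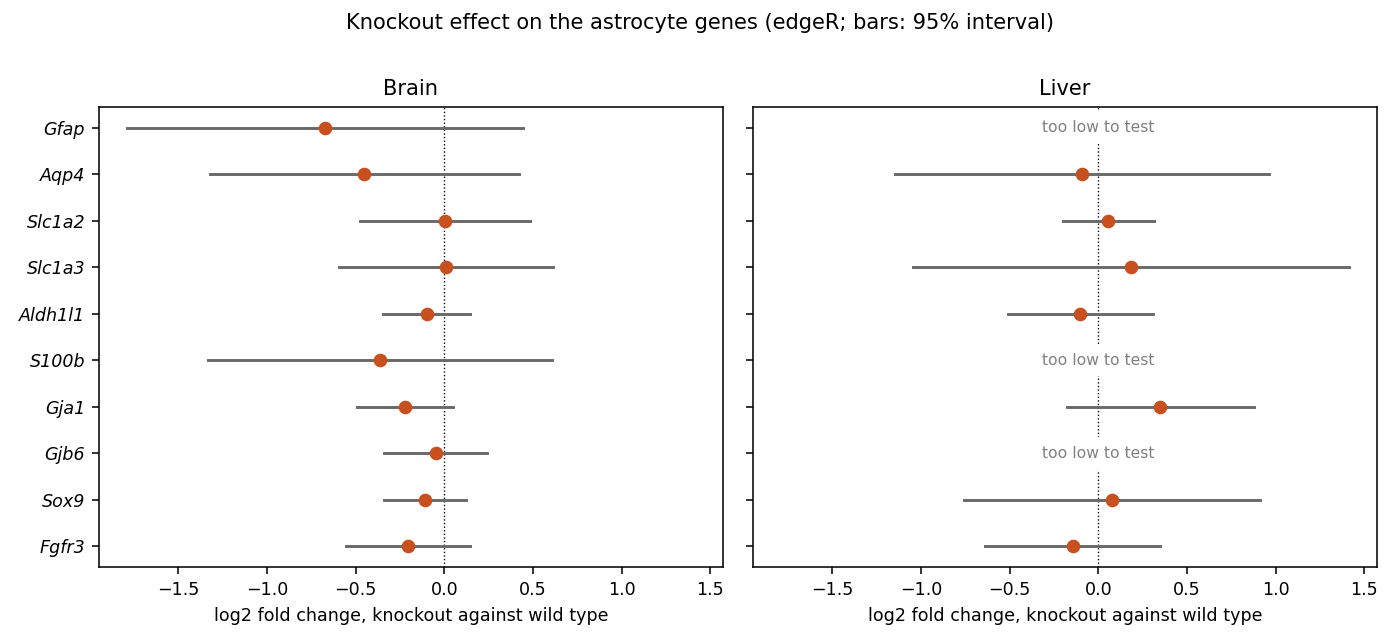
Log2 fold changes of knockout over wild type for the astrocyte genes in brain and liver, with 95% intervals from edgeR's quasi-likelihood fits; genes with too few counts in liver have no liver point. Every interval includes 0, and the intervals of Gfap in brain and of Slc1a3 and Aqp4 in liver are the widest.

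Between the tissues the 10 genes differed widely. In wild-type libraries 9 of 10 passed the test, as did 78.6% of 18850 genes (edgeR, adjusted p under 0.05). Of the 10, 8 were higher in brain, where 43.9% of all genes were, and Aldh1l1 was higher in liver, where 34.7% of all genes were. The median log2 difference, brain over liver, was 3.95 for the 10 genes and 0.21 for all genes. The following CPM are on a scale shared by the wild-type libraries of both tissues, so they differ from those within a tissue.

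Slc1a3 was 381-fold higher in brain, at 306 ± 96.8 against 0.798 ± 0.0967 CPM (SD, n = 3; log2 difference 8.57 ± 0.32 SE). Gfap was 204-fold higher, at 95.2 ± 63.2 against 0.467 ± 0.162 CPM (7.67 ± 0.63). Without wild-type brain replicate 3 the fold for Gfap was 122. S100b was at least 431-fold and Gjb6 at least 127.56-fold higher in brain, with liver set at a floor of 3 counts per library. These 4 genes were thus near or below the limit of counting in liver.

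Aqp4 was 15.5-fold and Gja1 15.4-fold higher in brain (log2 difference 3.95 ± 0.35 and 3.95 ± 0.24). Slc1a2 was 9.69-fold higher, at 3049 ± 647 against 315 ± 34.2 CPM (3.28 ± 0.21). The fold was thus smaller for Slc1a2 than for Slc1a3, a difference that was not tested. Sox9 was 3.39-fold higher in brain (1.76 ± 0.17). Their adjusted p-values in edgeR lay between 2.28e-07 and 4.81e-05, as for all 8 genes.

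Aldh1l1 was 38.8-fold higher in liver, at 1229 ± 277 against 31.6 ± 0.545 CPM (log2 difference -5.28 ± 0.21, adjusted p 2.87e-07 in edgeR), and the libraries of the 2 tissues lay far apart. Fgfr3 was the gene with no call, at 52.0 ± 8.72 CPM in brain and 45.8 ± 11.8 CPM in liver (0.18 ± 0.20, adjusted p 0.426 in edgeR). Its 95% interval was -0.29 to 0.65. With library totals in place of TMM scaling, the median over all genes was 1.05 in place of 0.21, and 11635 genes were called higher in brain and 3997 higher in liver, in place of 8275 and 6542. Fgfr3 then passed, at 1.03 with an adjusted p of 0.00199 in edgeR, a difference close to the shifted median.

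The knockout libraries, which share no library with the wild-type comparison, gave the same calls. Of the 10 genes 9 passed, as did 78.7% of 18785 genes. Of these, 8 were higher in brain, where 43.5% of all genes were, and Aldh1l1 was higher in liver, where 35.2% of all genes were. Aldh1l1 was 38.8-fold higher in liver, Slc1a2 9.33-fold, Slc1a3 336-fold and Gfap 122-fold higher in brain. Gjb6 was at least 117.778-fold higher in brain. S100b had 53.0 ± 21.3 CPM in brain against 4, 0 and 0 counts in liver. Fgfr3 had a log2 difference of 0.12 ± 0.16 (adjusted p 0.495 in edgeR).

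**Figure D4:**
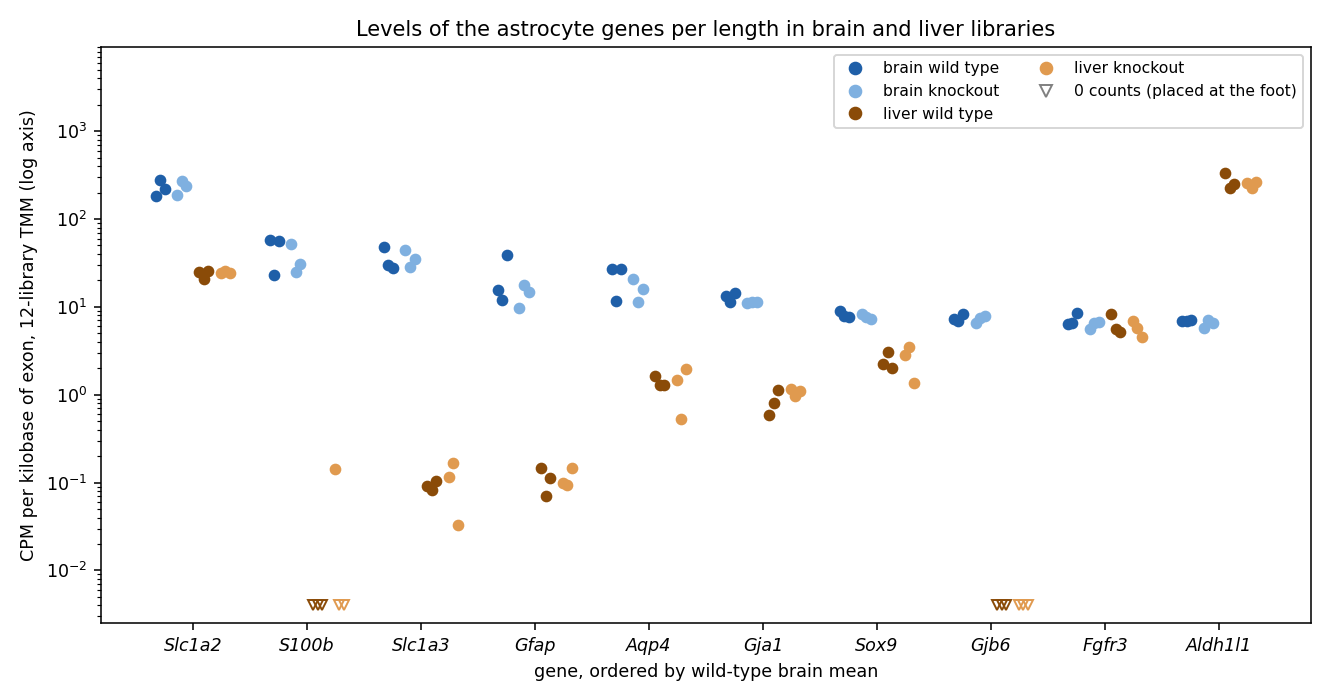
Levels of the 10 genes per kilobase of exon (CPM scaled over all 12 libraries, log axis) in each library of the 4 groups, ordered by the wild-type brain mean; triangles at the foot are libraries with 0 counts. Aldh1l1 is higher in every liver library than in any brain library, the libraries of Fgfr3 overlap between the tissues, and Gjb6 has no count in liver.

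The other genes of the pathways were compared by lists, whose counts stand beside 43.9% of all genes higher in brain and 34.7% higher in liver. Of the 30 further astrocyte markers, 22 were higher in wild-type brain and 6 in liver, with a median log2 difference of 7.39 (6.56 with the 9 genes at the floor of a tissue set to their bound). Slc6a11, a GABA transporter, was at least 681-fold and Mt3, a brain metallothionein, at least 366.5-fold higher in brain. Lcat, which esterifies cholesterol in lipoproteins, was 25.5-fold and Clu, the clusterin gene, 5.17-fold higher in liver. Liver expression was thus seen in other astrocyte markers as well as in Aldh1l1.

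Of the 17 genes of folate and one-carbon metabolism, the pathway of Aldh1l1, 12 were higher in liver and 4 in brain, with a median of -1.46. Ftcd, a histidine-degrading folate enzyme, was at least 3024-fold and Shmt1, the cytosolic serine hydroxymethyltransferase, 169-fold higher in liver. Aldh1l2, the mitochondrial relative of Aldh1l1, was 17.5-fold (10.7-fold without wild-type brain replicate 1) and Mthfd1l, a mitochondrial folate enzyme, 4.75-fold higher in brain.

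Of 14 genes that move or convert glutamate and glutamine, 9 were higher in brain and 5 in liver (median 4.25, or 3.73 with genes at the floor at their bound). The vesicular transporters Slc17a7 and Slc17a6 were at least 3617.66-fold and at least 197-fold higher in brain (at least 121-fold for Slc17a6 without wild-type brain replicate 3). Slc38a3, a glutamine transporter, was 51.9-fold and Gls2, the liver-type glutaminase, 22.2-fold higher in liver. Of 11 connexin and pannexin genes, 6 were higher in brain and 4 in liver (median 2.50), among them Panx2 and the neuronal connexin gene Gjd2 (at least 336-fold and at least 31.0675-fold higher in brain) and the hepatocyte connexin genes Gjb1 and Gjb2 (81.2-fold and 55.7-fold higher in liver). Without wild-type brain replicate 3 the fold for Gjb1 was 126. Gja1 and Gjb6 thus differed in direction from the connexin genes of hepatocytes.

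Of 12 genes of the endfoot complex, 8 were higher in brain and 3 in liver (median 0.95). Mlc1 and Hepacam, which form a membrane complex of astrocytes, were at least 324.5-fold and at least 369.6-fold higher in brain, while the syntrophin gene Sntb1 and the dystroglycan gene Dag1 were 37.6-fold and 2.08-fold higher in liver. Of 17 tested genes of FGF signalling, 9 were higher in brain and 7 in liver (median 0.36), shares near those of all genes. Fgf9, a ligand, and Etv4, a transcription factor of the pathway, were 62.0-fold and 20.7-fold higher in brain. Fgfr4, the main hepatocyte receptor of the family, and its co-receptor gene Klb were 403-fold and 250-fold higher in liver, in contrast to Fgfr3. Both rested on few brain counts, and their folds were 624 without wild-type brain replicate 1 (Fgfr4) and 497 without replicate 2 (Klb).

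Of 14 genes of glial regulators, 7 were higher in brain and 6 in liver (median 0.38), again near those of all genes. The transcription factor genes Rorb and Sox2 were at least 610-fold and at least 115-fold higher in brain, and Id3 and Zbtb20 4.48-fold and 4.27-fold higher in liver. Of 6 tested relatives of S100b, 2 were higher in brain, S100a6 (2.43-fold) and S100a16 (1.45-fold), and 4 in liver, with S100a10 (7.19-fold) and S100a1 (4.50-fold) leading (median -1.46). Genes that rise in reactive astrocytes were mostly higher in liver, 23 of 29 against 2 in brain (median -2.02). Among them C3, the complement gene, had 7, 4 and 45 counts in wild-type brain and at least 178450 in each wild-type liver library, and its fold in favour of liver was 12776, or 43889 without brain replicate 3. Steap4, a metalloreductase gene, was 293-fold higher in liver, while Synm, an intermediate filament gene, was 28.5-fold and Cd109 at least 8.34-fold higher in brain.

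In the knockout comparisons no gene of any of these 9 lists passed in either tissue, where 0% of all genes did (edgeR, adjusted p of 0.992 or above). Median log2 fold changes in brain were -0.04 for the glutamate genes, -0.21 for the connexins and pannexins, 0.01 for the endfoot complex, -0.07 for the reactive genes, 0.07 for the regulators, -0.02 for FGF signalling, 0.00 for folate metabolism and -0.07 for the S100 relatives. In liver they were 0.00, 0.12, 0.04, 0.18, -0.03, -0.00, -0.04 and 0.10 in the same order, and 0.11 for the further astrocyte markers. The medians over all genes were -0.01 in brain and 0.01 in liver. The connexin and pannexin genes summed to 320, 300 and 418 CPM in wild-type brain and 290, 343 and 316 CPM in the knockout. Wild-type replicate 3 was highest and knockout replicate 2 second highest, as for the oligodendrocyte genes. The part of oligodendrocyte RNA in these levels was not tested. Medians with a library left out are given only for the reactive genes and the further astrocyte markers. Single libraries moved those medians. In brain that of the reactive genes was 0.07 without wild-type replicate 3 and 0.06 without knockout replicate 2. In liver it was 0.05 without knockout replicate 2, and that of the further astrocyte markers -0.09 without knockout replicate 1.

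The genes with the smallest unadjusted p-values in each list did not pass either. In brain they were Slc6a11 (log2 fold change -0.57 ± 0.36 SE), Slc38a5 (0.97 ± 0.38), Gjb1 (-0.63 ± 0.46), Kcnj10 (-0.40 ± 0.26), Gbp2 (-0.39 ± 0.20), Nfix (0.13 ± 0.12), Frs3 (-0.23 ± 0.14), Gcsh (-0.21 ± 0.15) and S100a16 (-0.40 ± 0.13). In liver they were Ppp1r3c (-0.94 ± 0.25), Slc38a1 (0.62 ± 0.26), Gja4 (0.46 ± 0.23), Kcnj10 (0.61 ± 0.32), Cd44 (0.57 ± 0.25), Hes1 (-0.53 ± 0.52), Dusp6 (-0.58 ± 0.24), Gcsh (-0.19 ± 0.08) and S100a6 (-0.69 ± 0.36). Kcnj10, the potassium channel gene of astrocyte endfeet, had estimates of opposite sign in the 2 tissues.

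The 10 genes were summarised over the 6 brain libraries as the mean of their standardised log2 levels, a mean that not all of them followed. This mean was highest in wild-type replicate 3 (0.85) and replicate 1 (0.46) and lowest in knockout replicate 1 (-0.50). Pearson r with the mean was 0.99 for Gja1, 0.86 for Gfap, 0.81 for Fgfr3, 0.73 for Aqp4, 0.72 for Gjb6, 0.64 for S100b, 0.59 for Aldh1l1 and 0.36 for Sox9, and it was -0.05 for Slc1a3 and -0.28 for Slc1a2. Each gene is part of the mean it is set against, which raises its r, so these values are a description only.

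The 5 other genes most like this mean among 18065 were Tnfsf13b (r 0.997), Cenpl (0.994), Pigs (0.991), Atp13a5 (0.990) and Rbbp4 (0.986). These are the highest of many correlations over 6 libraries of 1 tissue that share replicate numbers and differ in RNA of other cell types. They are a description only. Without the 2 libraries farthest from the median, r was 0.98, 0.99, 0.96, 0.96 and 0.62 in that order, so the likeness of Rbbp4 rested on those 2 libraries. When Slc1a3, Aldh1l1, Gjb6 or Sox9 was left out of the mean, 2 of the 5 remained among the closest, and 3 remained when Gfap, Aqp4, Slc1a2 or S100b was left out.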

How the data were processed

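Total RNA of 12 libraries was measured, 3 in each of 4 groups assigned by title and genotype label. RNA was extracted with TRIzol, treated with DNase, depleted of ribosomal RNA and sequenced as single-end reads from stranded libraries, per the labels' protocols. The tools cutadapt and STAR and the build mm10 are named, per the submitters' processing notes; what counted the reads, and whether by strand, is not given in the sources used here. The authors deposited expected counts per gene, not normalized, of which 5.06% to 5.71% per library were not whole; they were rounded. All 55450 genes matched GENCODE M21 (GRCm38), from which exon lengths were taken.

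Comparisons used the quasi-likelihood test of edgeR 4.0.16 (R 4.3.3) with TMM scaling, filterByExpr (minimum count 10, minimum total 15), robust estimation and Benjamini-Hochberg adjustment over all genes tested, at a threshold of 0.05. Each comparison was fitted on its own 6 libraries and the interaction on all 12. The sources used here do not say if a brain and a liver of equal number were taken from 1 animal, and the tissue comparisons and the interaction treated all libraries as independent. CPM used TMM library sizes within a tissue unless said otherwise. The knockout fits of brain and liver were also run on simulated counts, drawn independently for each library, and the outcome is not given here. Those counts held no likeness between same-numbered libraries, so they cannot show how the fits handle it. No 2 libraries of a group agreed within sampling noise. Wild-type and knockout libraries share replicate numbers in their titles. In liver, same-numbered libraries deviated together (correlations 0.326, 0.359 and 0.397 over 13321 genes), so the number may pair them there. The main liver fit left the number out, as did the main brain fit, so the main liver values are unpaired. The fit with the number as a block was an alternative. Alternatives were DESeq2 1.42.0 size factors, library totals, the DESeq2 Wald test, all genes with at least 1 count, genes with a mean of at least 1 CPM, one fit over all 12 libraries, a block for the replicate number and each library left out in turn. Named genes were the 10 astrocyte genes, the label checks and the gene of smallest p per list and tissue in the knockout comparisons. Up to 2 called genes per list and direction between tissues were named too, as were the 5 genes most like the mean of the 10. Slc1a6 was named after its values were seen. The genes and lists were chosen with earlier results of these data known.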

Additional observations from a re-analysis of the deposited data

How the results depend on the processing

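No astrocyte gene was called between knockout and wild type in either tissue, or in the interaction, under any alternative tried, and 9 of the 10 were called between tissues under each of them except library totals, where Fgfr3 joined them (1.03 in wild type, 1.00 in knockout). Over all genes, the number called in liver was 0 with edgeR and 10 with the DESeq2 Wald test, 4 with no filter, 2 with the replicate block and 0 to 1 with one library left out; the number called for the interaction was 1 with DESeq2 and 2 with the replicate block. The cause of these changes was not tested. In brain, same-numbered libraries correlated at 0.71, 0.68 and -0.03 in their deviations. Replicate 3 was not closest to its own number, so the numbers were not taken as pairs. The block left 0 genes called there. Aqp4 then had -0.39 ± 0.14 (unadjusted p 0.0317, adjusted p 0.996, edgeR), the smallest unadjusted p of the 10 astrocyte genes in brain. How many of all genes had an unadjusted p under 0.05 with the block is not given here. With the block the interaction of Aldh1l1 was -0.0036. The block changed no call of an astrocyte gene. With one library left out, the brain log2 fold change ranged from -0.97 to 0.032 for Gfap (0.032 without wild-type replicate 3), -0.14 to 0.18 for Slc1a2, -0.18 to 0.29 for Slc1a3 and -0.11 to 0.034 for Gjb6. It kept its sign for Aqp4 (-0.75 to -0.24), S100b (-0.72 to -0.14), Gja1 (-0.31 to -0.13), Fgfr3 (-0.28 to -0.047), Aldh1l1 (-0.16 to -0.018) and Sox9 (-0.16 to -0.042). In liver it ranged from -0.51 to 0.28 for Aqp4, -0.036 to 0.11 for Slc1a2, -0.30 to 0.60 for Slc1a3, -0.22 to 0.10 for Aldh1l1, -0.23 to 0.38 for Sox9 and -0.28 to 0.084 for Fgfr3, and from 0.15 to 0.62 for Gja1. The interaction ranged from -0.71 to 0.061 for Aqp4, -0.22 to 0.14 for Slc1a2, -0.58 to 0.31 for Slc1a3, -0.17 to 0.14 for Aldh1l1, -0.47 to 0.13 for Sox9 and -0.27 to 0.12 for Fgfr3, and from -1.02 to -0.032 for Gfap and -0.82 to -0.35 for Gja1. Between tissues the log2 difference of Gfap in wild type ranged from 6.93 to 7.92, and that of Fgfr3 from -0.0043 to 0.39 in wild type and from -0.033 to 0.25 in knockout. Of the 5 genes most like the mean of the astrocyte genes, 3 remained without Gfap, Aqp4, Slc1a2 or S100b, and 2 without Slc1a3, Aldh1l1, Gjb6 or Sox9. Depth limits the liver values of Gfap, Slc1a3, S100b and Gjb6.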

Other observations

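Markers of vessels and microglia were measured beside the astrocyte genes. Pecam1, the endothelial adhesion molecule, had 12.5, 13.6 and 12.7 CPM in wild-type brain and 16.6, 16.9 and 19.8 CPM in knockout brain, with no overlap between the genotypes. In liver it had 14.7, 16.02 and 18.1 CPM in wild type and 22.8, 21.3 and 20.9 CPM in knockout, again with no overlap. The log2 fold changes were 0.46 ± 0.12 (SE) in brain and 0.41 ± 0.10 in liver, and neither passed in edgeR (adjusted p 1.00 and 0.992). The share of all genes with ranges that did not overlap was 4.23% in brain and 9.84% in liver, and the other 7 endothelial genes did not include a gene that passed. Over the 8 endothelial genes, 5 had lower estimates in knockout brain (median -0.0043), and their sums overlapped, at 197, 212 and 214 CPM in wild type and 185, 215 and 242 CPM in knockout. In liver 6 of 7 tested had higher estimates (median 0.08), and the sums overlapped there too. In liver 9 of 9 tested microglial genes, most of which Kupffer cells also express, had higher estimates in the knockout (median 0.47). So did 6 of 6 Kupffer cell genes (median 0.60), against 7858 of 15329 of all genes, and none was called. Knockout replicate 2 was the highest library for both sums, at 230 and 275 CPM. The sums overlapped between the genotypes. Knockout replicate 3 had 101 and 118 CPM, within the wild-type ranges of 98.3 to 129 and 107 to 142 CPM.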
